A study of Mus musculus with 6 samples.

Results

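The 9 genes examined here belong to the chemokine system of mouse bone marrow macrophages, compared with and without RKIP. They are the chemokine receptors Ccr1, Ccr2, Cx3cr1 and Cxcr4 and the CXC chemokines Cxcl12, Cxcl16, Cxcl2, Cxcl10 and Pf4. They were chosen by name, and all 9 were found among the 27458 genes of the deposited table. RNA was sequenced from 3 KO libraries (primary bone marrow macrophages of RKIP-/- mice) and 3 WT libraries (the same cells of RKIP+/+ mice). Cells of both genotypes had been treated with macrophage colony-stimulating factor (M-CSF), and neither age, strain nor the number of animals was given in the labels. RKIP (Raf kinase inhibitor protein) is the product of Pebp1, a protein of the cytosol that binds Raf kinases and, once phosphorylated by protein kinase C, the receptor kinase GRK2. Pebp1 was listed at 0 in the KO libraries and at 39.2, 33.2 and 39.0 FPKM in the WT libraries.

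Chemokines are small secreted proteins that steer leukocytes along a gradient. Their receptors are 7-transmembrane proteins coupled to inhibitory G proteins, and receptor kinases of the GRK family and arrestins switch them off. In marrow, CXCL12 made by stromal cells holds CXCR4-bearing leukocytes in place, whereas CCR2 lets inflammatory monocytes leave for the blood and CX3CR1 is typical of patrolling monocytes and tissue macrophages.

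Levels are given in FPKM, the fragments of a gene scaled by transcript length and by the library total, which allows levels of different genes to be set side by side. A change is the log2 fold change of KO over WT with its approximate standard error, from edgeR's quasi-likelihood test on the estimated counts (n = 3 per group). A gene was called at a Benjamini-Hochberg adjusted p under 0.05, and 11636 genes, those averaging 1 FPKM or more over the 6 libraries, were tested. Total estimated counts were 63607276 to 70059042 in the KO libraries and 53188659 to 55255365 in the WT libraries. All 12 macrophage markers examined were above that mean, with Lyz2, Cd68 and Mrc1 the most abundant. Over all tested genes 20.3% were called higher in KO and 19.4% lower. Of the 12 macrophage markers 4 were called higher, among them Mrc1, Csf1r and Adgre1, and 5 lower. Their summed level was 19232 to 19511 FPKM in the KO libraries and 21032 to 22507 FPKM in the WT libraries, and most of it was Lyz2, at 16648 ± 88.8 FPKM in KO and 19286 ± 768 FPKM in WT. The fall of Lyz2 was not called with the trend on gene length removed (edgeR, adjusted p = 0.704). Other cells were present too: collagen Col1a1 stood at 460 ± 35.6 FPKM in KO and 486 ± 31.8 FPKM in WT. The summed level of 13 neutrophil markers was 16.8 to 17.6 FPKM in KO and 86.6 to 174 FPKM in WT. In bulk RNA of this kind, fewer cells of a type and less RNA per cell cannot be told apart.

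The members divided by direction. Of the 8 tested genes, Ccr2, Cxcl12 and Pf4 rose and Ccr1, Cx3cr1, Cxcr4, Cxcl16 and Cxcl10 fell, and the ninth, Cxcl2, was too scarce for the test. Across all tested genes, 20.3% were higher, 19.4% lower and 39.7% called in either direction. The split of all calls was 51.2% higher, against 39.9% with upper-quartile scaling and 62.8% with limma on log2(FPKM + 1), while the 8 genes kept their direction under each scaling tried. The FPKM values of the genotypes did not overlap for any of the 9 genes, as for 51.5% of the tested genes. The genes were chosen with earlier results of these data known, so their share of calls is a description of these 9 and no more. The median absolute log2 change of a called gene was 0.32. Ccr1, Ccr2, Cx3cr1, Cxcl12, Cxcl16 and Cxcl10 exceeded it, Cx3cr1 and Cxcl16 by less than their standard errors. A called change at least as large as that of Cxcl16, the smallest of those 6, was found for 19.6% of the tested genes.

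**Figure D1:**
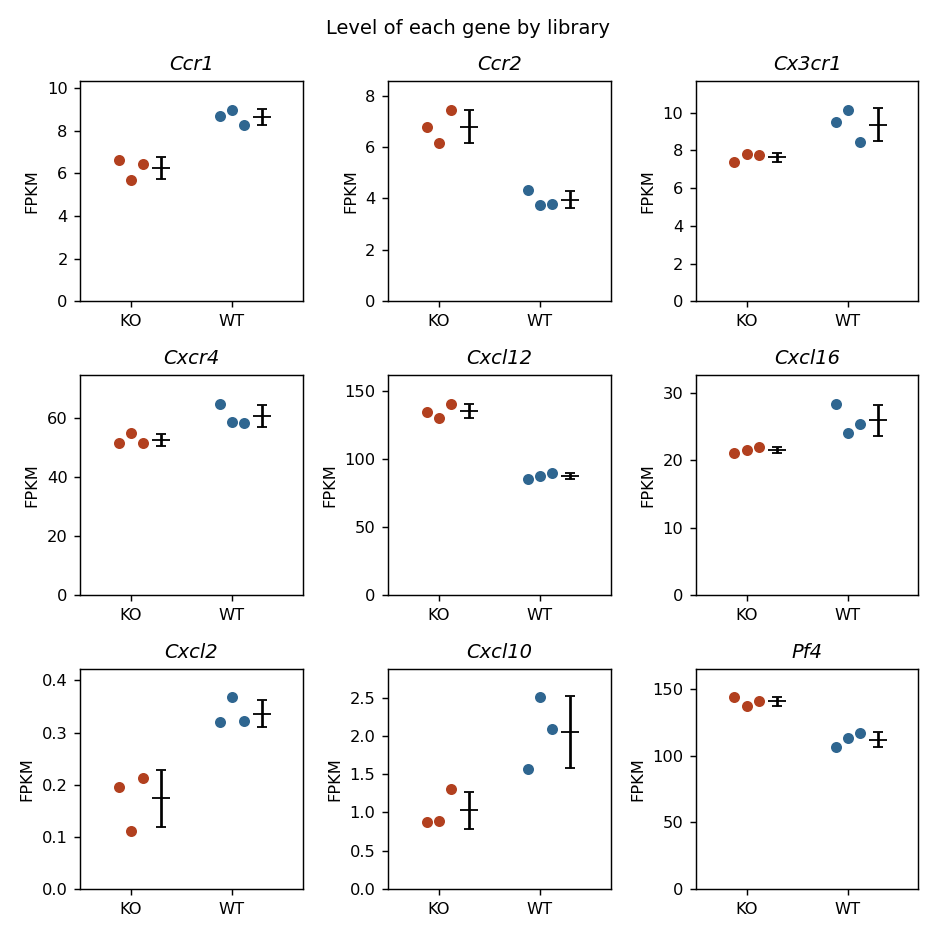
Level of each of the 9 genes (FPKM, linear axes from 0) in the 3 KO and the 3 WT libraries, with the mean and SD beside the points. In each panel the KO points lie wholly above (Ccr2, Cxcl12, Pf4) or wholly below the WT points.

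Ccr2, which binds CCL2 and related monocyte attractants, was the 1 receptor of the 4 that rose. It had 6.77, 6.15 and 7.45 FPKM in the KO libraries, against 4.34, 3.73 and 3.79 FPKM in the WT libraries. The lowest KO library was thus well above the highest WT library, and the increase was 1.65-fold (log2 0.73 ± 0.08, edgeR, adjusted p = 5.19e-05). It was smaller, at log2 0.47 (edgeR, adjusted p = 0.000311), with trends on both length and GC content removed. Ccr2 (ENSMUSG00000049103) occupies chromosome 9, plus strand, 124101950 to 124113557.

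Ccr1, a receptor for inflammatory CC chemokines such as CCL3, CCL5, CCL6 and CCL9, moved the other way. It had 6.63, 5.69 and 6.43 FPKM in the KO libraries, against 8.70, 8.98 and 8.27 FPKM in the WT libraries. This was 1.44-fold lower (log2 -0.52 ± 0.08, edgeR, adjusted p = 0.000372). Ccr1 (ENSMUSG00000025804) is a neighbour of Ccr2 on chromosome 9, at 123962124 to 123968692 on the minus strand. Ccr3, which lies in the same receptor cluster, was not called, at 1.09 ± 0.0847 FPKM in KO and 1.09 ± 0.115 FPKM in WT (SD, n = 3 each). In each KO library Ccr2 exceeded Ccr1, with a Ccr2 to Ccr1 ratio of FPKM of 1.02, 1.08 and 1.16, and in each WT library it was below Ccr1, with a ratio of 0.498, 0.415 and 0.459. This ratio does not depend on the scaling of a library. It can still carry a trend on gene length, as the longest transcripts of Ccr2 and Ccr1 are 5728 and 2833 bp. It is given as a description with no test, since Ccr2 and Ccr1 each separated the genotypes, in opposite directions.

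Cx3cr1, the receptor of the membrane-anchored chemokine CX3CL1, fell. It had 7.37, 7.80 and 7.75 FPKM in the KO libraries, against 9.50, 10.1 and 8.41 FPKM in the WT libraries. The gap between the highest KO and the lowest WT library was small, and the change was 1.27-fold (log2 -0.35 ± 0.07, edgeR, adjusted p = 0.00209). The ratio of Ccr2 to Cx3cr1 was 0.889 ± 0.0899 in KO and 0.425 ± 0.0502 in WT (SD, n = 3 each), likewise a description with no test. The deposited table places Cx3cr1 (ENSMUSG00000052336) on chromosome 9, minus strand, 119901616 to 120068296. This span holds other genes, Gorasp1 and Wdr48 among them, but shares no annotated exon base with them.

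Those monocyte receptors can be read beside 13 other monocyte markers, of which 10 were tested. Over all tested genes 19.4% were lower in KO and 20.3% higher. Of the 10 markers 7 were lower and 1 higher (median log2 change -0.45, against -0.01 over all tested genes). Of the most abundant monocyte markers, F13a1, the transglutaminase subunit of factor XIII, stood at 16.2 ± 0.465 FPKM in KO and 23.5 ± 0.663 FPKM in WT. The versican gene Vcan stood at 6.52 ± 0.340 FPKM in KO and 7.41 ± 0.387 FPKM in WT. Hp, the haptoglobin gene, was the one called higher, at 62.3 ± 1.40 FPKM in KO and 49.8 ± 2.71 FPKM in WT. The summed level of the list was 100.4 to 104.6 FPKM in KO and 101.9 to 109.5 FPKM in WT. Hp was the largest part of that sum, and it moved opposite to the 7 markers called lower. The classical monocyte gene Ly6c2 stood at 0.0758 ± 0.0496 FPKM in KO and 0.575 ± 0.0468 FPKM in WT, and the part of monocytes in the receptor changes was not tested.

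Cxcr4, the CXCL12 receptor, was the most abundant of the receptors. It had 51.4, 55.0 and 51.4 FPKM in the KO libraries, against 64.8, 58.4 and 58.2 FPKM in the WT libraries. It fell 1.19-fold (log2 -0.26 ± 0.05, edgeR, adjusted p = 0.00193). The call ended once the trend of fold changes on gene length was removed (log2 -0.09 ± 0.05, edgeR, adjusted p = 0.142). Cxcr4 (ENSMUSG00000045382) occupies chromosome 1, minus strand, 128588199 to 128592293.

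Its ligand Cxcl12 rose, with the smallest p of the 9 genes. It had 135, 131 and 141 FPKM in the KO libraries, against 85.4, 87.6 and 90.03 FPKM in the WT libraries. The increase was 1.49-fold (log2 0.57 ± 0.04, edgeR, adjusted p = 2.57e-06). The ratio of ligand to receptor RNA, Cxcl12 over Cxcr4 in FPKM, was 2.62, 2.38 and 2.74 in the KO libraries and 1.32, 1.501 and 1.55 in the WT libraries. This ratio had to separate the genotypes, since its terms did so in opposite directions, and it is given as a description with no test. Cxcl12 (ENSMUSG00000061353) occupies chromosome 6, plus strand, 117168535 to 117181367. Ackr3, the atypical receptor that takes up CXCL12, was under the filter with 0.122, 0.0956 and 0.0160 FPKM in the KO libraries and 0.528, 0.475 and 0.429 FPKM in the WT libraries. With no filter it was called lower (edgeR, adjusted p = 0.0178).

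The ligand and its receptor moved in opposite directions, though the fall of Cxcr4 was not called with the length trend removed. The stretches before the starts of Cxcl12 and Cxcr4 are therefore shown. Both hold several GC boxes, and the capitals mark CCGCCC or its reverse complement. The sequences are from RefSeq (GRCm38.p6), read 5′ to 3′ on the strand of the gene: chr6:117168285-117168534 on the plus strand for Cxcl12 and chr1:128592300-128592549 on the minus strand for Cxcr4.
Cxcl12: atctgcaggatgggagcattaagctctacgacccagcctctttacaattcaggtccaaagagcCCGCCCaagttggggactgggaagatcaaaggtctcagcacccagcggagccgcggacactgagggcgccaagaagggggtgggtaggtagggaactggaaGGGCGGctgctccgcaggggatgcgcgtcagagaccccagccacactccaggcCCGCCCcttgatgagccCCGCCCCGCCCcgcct
Cxcr4: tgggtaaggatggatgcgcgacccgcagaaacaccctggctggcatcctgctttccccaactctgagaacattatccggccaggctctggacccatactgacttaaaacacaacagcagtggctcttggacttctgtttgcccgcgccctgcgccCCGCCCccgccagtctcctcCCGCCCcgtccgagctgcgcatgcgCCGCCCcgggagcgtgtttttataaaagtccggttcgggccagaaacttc
A match on either strand was found in 32.7% of the 32851 RefSeq promoters, each searched over the 250 bases before its RefSeq start, so these letters are common.

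Cxcl12 is a marrow stromal gene, and 18 stromal and osteoblast markers were therefore set beside it. Of 14 tested, 4 were higher and 3 lower in KO (median log2 change 0.00), against 20.3% and 19.4% of all tested genes. The most abundant, Col1a1, Acta2 and Col1a2, were not called. The 4 higher genes were Kitl, Foxc1, Ebf3 and Prrx1. Foxc1 and Ebf3 are transcription factors known to maintain the CXCL12-abundant reticular cells of marrow, and Kitl encodes stem cell factor, which those cells also make. Kitl had 26.6, 25.0 and 28.3 FPKM in the KO libraries, against 14.9, 13.8 and 14.3 FPKM in the WT libraries. Foxc1 averaged 3.25 ± 0.212 FPKM in KO and 2.20 ± 0.0213 FPKM in WT, and Ebf3 1.81 ± 0.0755 FPKM in KO and 1.18 ± 0.0776 FPKM in WT. The called falls were those of Alpl, Tagln and Pdgfrb. With the length trend removed, 3 rose and 5 fell. Prrx1 and Tagln were then no longer called (edgeR, adjusted p = 0.317 and 0.172). Col1a1 and Col1a2 were called lower under that correction (edgeR, adjusted p = 0.0116 and 0.00613), and Acta2 was not called (adjusted p = 0.642). The summed level of the list was 1485 to 1636 FPKM in KO and 1527 to 1631 FPKM in WT, and no member was at 0 in every library. These 4 rising genes were singled out after their values were seen, and their part in the rise of Cxcl12 was not tested.

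Pf4, or CXCL4, a chemokine stored in platelets and also made by macrophages, was the most abundant member in both genotypes. It had 144, 137 and 142 FPKM in the KO libraries, against 107, 113 and 117 FPKM in the WT libraries. The increase was 1.21-fold (log2 0.27 ± 0.05, edgeR, adjusted p = 0.000918). With the length trend removed it was larger, at log2 0.70 ± 0.05 (edgeR, adjusted p = 3.97e-06). The longest Pf4 transcript is 588 bp. Its gene (ENSMUSG00000029373) occupies chromosome 5, plus strand, 90772435 to 90773383. Markers of megakaryocytes and platelets were low: 8 of the 11 listed genes were in the table used here, and 2 were tested. The 8 summed to 3.14 to 3.53 FPKM in KO and 2.96 to 3.63 FPKM in WT. The most abundant were Vwf, Treml1 and Gp1ba. Vwf was called lower, at 1.36 ± 0.0856 FPKM in KO and 1.82 ± 0.278 FPKM in WT (edgeR, adjusted p = 0.00368). Treml1 was not called (edgeR, adjusted p = 0.522). Ppbp, the other major platelet chemokine, stood at 0.261 ± 0.221 FPKM in KO and 0.126 ± 0.131 FPKM in WT.

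Cxcl16, a transmembrane chemokine that also acts as a scavenger receptor, fell. It had 21.1, 21.5 and 22.0 FPKM in the KO libraries, against 28.4, 24.0 and 25.3 FPKM in the WT libraries. The change was 1.248-fold (log2 -0.32 ± 0.06, edgeR, adjusted p = 0.00110). WT library 1 was the highest, and without it the log2 fold change was -0.25 (edgeR, adjusted p = 0.00239). Cxcl16 (ENSMUSG00000018920) occupies chromosome 11, minus strand, 70453983 to 70459984. It shares 552 exon bases with Zmynd15 on the other strand, and the sources do not say if strand entered the counting, so its share of reads is uncertain. Zmynd15 itself was low, at 0.712 FPKM in KO and 0.778 FPKM in WT. Its receptor Cxcr6 was close to the limit of detection, at 0.0635 ± 0.0479 FPKM in KO and 0.0811 ± 0.0375 FPKM in WT.

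Cxcl10, an interferon-induced attractant of CXCR3-bearing T cells, showed the largest relative change of the 8 tested genes. It had 0.876, 0.888 and 1.31 FPKM in the KO libraries, against 1.57, 2.50 and 2.09 FPKM in the WT libraries. The highest KO library came close to the lowest WT library, and the mean change was 2.06-fold lower (log2 -1.04 ± 0.22, edgeR, adjusted p = 0.00268). The counts behind these values are small, at about 34 to 55 fragments per KO library and 55 to 86 per WT library. The gene (ENSMUSG00000034855) occupies chromosome 5, minus strand, 92346638 to 92348882. It shares 133 exon bases with Art3 on the other strand, a gene at 0.0144 FPKM in KO and 0.0134 FPKM in WT. Of 12 interferon-induced genes listed with it, 10 were tested. Of these 7 fell (median log2 change -0.42), against 19.4% and a median of -0.01 over all tested genes. With the length trend removed 5 fell (median -0.30). Ifit1, Ifit2 and Irf7 were not called. Usp18 stood at 2.53 ± 0.440 FPKM in KO and 4.92 ± 0.780 FPKM in WT, and Isg15 at 10.4 ± 2.05 FPKM in KO and 21.3 ± 3.96 FPKM in WT. The chemokine gene Ccl5, also in that list, stood at 0.746 ± 0.237 FPKM in KO and 1.64 ± 0.140 FPKM in WT. Its neighbour Cxcl9, a ligand of the same receptor, was under the filter at 0.361 ± 0.0197 FPKM in KO and 0.523 ± 0.232 FPKM in WT, with overlap. Cxcr3 itself was not called, at 3.07 ± 0.157 FPKM in KO and 2.61 ± 0.629 FPKM in WT.

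Cxcl2, a neutrophil attractant that acts through CXCR2, was barely present. It had 0.196, 0.112 and 0.213 FPKM in the KO libraries, against 0.320, 0.368 and 0.322 FPKM in the WT libraries, or about 4 to 9 fragments per KO library and 10 to 12 per WT library. With no filter on low values it was not called (log2 -0.98 ± 0.34, edgeR, adjusted p = 0.110), where 14.4% of all genes were. Cxcl2 (ENSMUSG00000058427) occupies chromosome 5, plus strand, 90903871 to 90905938. Its transcripts match those of Cxcl3 at 90.7% identity over 550 bases, so reads may be shared between them. The related CXCR2 ligands Cxcl1, Cxcl3 and Cxcl5 lie in the same cluster and were scarce as well. Cxcl5 had 0.0913, 0 and 0.178 FPKM in the KO libraries, against 1.02, 1.36 and 1.253 FPKM in the WT libraries (no filter, edgeR, adjusted p = 0.0129). Cxcl3 had 0.0167, 0 and 0.0139 FPKM in the KO libraries, against 0.398, 0.311 and 0.229 FPKM in the WT libraries (no filter, edgeR, adjusted p = 0.00398). Cxcl1 was not called. Cxcr2, the receptor and itself a neutrophil marker, had 0.0328, 0.109 and 0 FPKM in the KO libraries, against 0.521, 0.960 and 0.883 FPKM in the WT libraries (no filter, edgeR, adjusted p = 0.0123). Neutrophil markers moved in the same direction: of 13, 9 were tested and 8 fell, against 19.4% of all tested genes. The most abundant, S100a9, had 0.479, 0.885 and 0.885 FPKM in the KO libraries, against 23.3, 72.1 and 75.6 FPKM in the WT libraries. Ngp averaged 0.915 ± 0.191 FPKM in KO and 24.8 ± 5.60 FPKM in WT, whereas Csf3r was not called. Ly6g, a defining neutrophil gene, was listed at 0 in each KO library, and their part in the levels of these chemokines was not tested.

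The stretches before the starts of Cxcl10 and Cxcl2 are shown because these CXC chemokines had the lowest KO levels relative to WT among the 9 genes and are textbook targets of NF-kB. The capitals mark the interferon-stimulated response element core (GAAA, any 2 bases, then GAAA) and the NF-kB consensus motif, each searched on both strands. The sequences are from RefSeq (GRCm38.p6), read 5′ to 3′ on the strand of the gene: chr5:92348890-92349139 on the minus strand for Cxcl10 and chr5:90903649-90903870 on the plus strand for Cxcl2. The stretch of Cxcl2 ends before the gene start of the deposited table and is 222 bases long, whereas the search covered the 250 bases before the RefSeq start.
Cxcl10: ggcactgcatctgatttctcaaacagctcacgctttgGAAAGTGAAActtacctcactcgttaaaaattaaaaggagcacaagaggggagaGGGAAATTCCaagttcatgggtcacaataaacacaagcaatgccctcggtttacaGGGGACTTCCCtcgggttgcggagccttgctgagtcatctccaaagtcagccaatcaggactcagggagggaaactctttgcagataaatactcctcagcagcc
Cxcl2: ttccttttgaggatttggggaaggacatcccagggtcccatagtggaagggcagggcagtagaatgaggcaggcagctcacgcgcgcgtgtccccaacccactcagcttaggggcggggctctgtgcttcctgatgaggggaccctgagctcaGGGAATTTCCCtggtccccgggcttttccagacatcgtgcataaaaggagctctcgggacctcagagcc
Counted from the RefSeq start, Cxcl10 holds the response element core at -213 and NF-kB consensus matches at -159, -104 and -103, of which the last pair overlap. Cxcl2 holds overlapping NF-kB matches at -97 and -96 and no response element core in this window. Over all promoter windows, 2.98% held the response element core and 7.25% the NF-kB consensus. Of the 9 genes, 8 had a promoter in the RefSeq table, Cxcl16 being the exception. Beyond Cxcl10 and Cxcl2, an NF-kB consensus match was also found before Ccr1, at -74.

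The chromosome 5 members lie on the same chromosome as Pebp1. Pf4, Cxcl2 and Cxcl10 are 26.5, 26.4 and 24.9 Mb from it.

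The order of levels was nearly the same in both genotypes. In KO it ran Pf4, Cxcl12, Cxcr4, Cxcl16, Cx3cr1, Ccr2, Ccr1, Cxcl10 and Cxcl2. The libraries of Pf4 and Cxcl12 overlapped, as did those of Cx3cr1 and Ccr2 and those of Ccr2 and Ccr1, and all other neighbours in the order stood apart. In WT Ccr1 preceded Ccr2, and only Cx3cr1 and Ccr1 overlapped. Pf4 and Cxcl12 were above 98.1% and 98.0% of the tested genes in KO and above 97.4% and 96.4% in WT. Cxcl10 was among the lowest tested genes, above 1.97% in KO and 16.5% in WT.

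**Figure D2:**
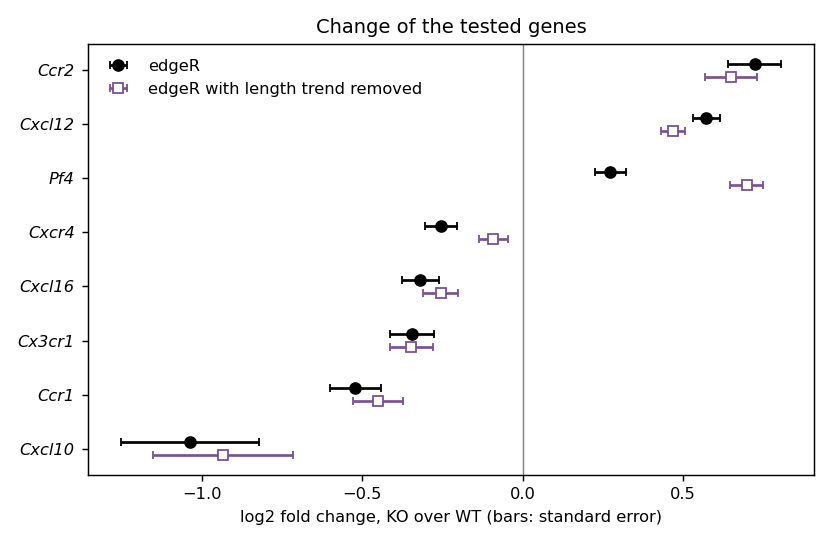
Log2 fold change of KO over WT with its standard error for the 8 tested genes, from edgeR (filled circles) and from edgeR with each library's trend on gene length removed (open squares). Ccr2 moves to 0.65 and Cxcl12 to 0.47, Pf4 shifts to 0.70, and Cxcr4 shifts towards 0, to -0.09.

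Fold changes followed transcript length in these libraries, which bears on several members. The median log2 fold change was -0.32 in the shortest of 10 length classes of the tested genes and 0.20 in the longest. Ccr2 and Cxcl12, with longest transcripts of 5728 and 5627 bp, lay in a class with a median of 0.13, and both exceeded it. Pf4 rose although the median of its class was -0.32. Cx3cr1 (4493 bp) fell where the median was 0.07. Cxcr4 (1805 bp) lay near its class, whose median was -0.11. With the length trend removed, 7 of the 8 genes were called, against 33.0% of all tested genes.

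**Figure D3:**
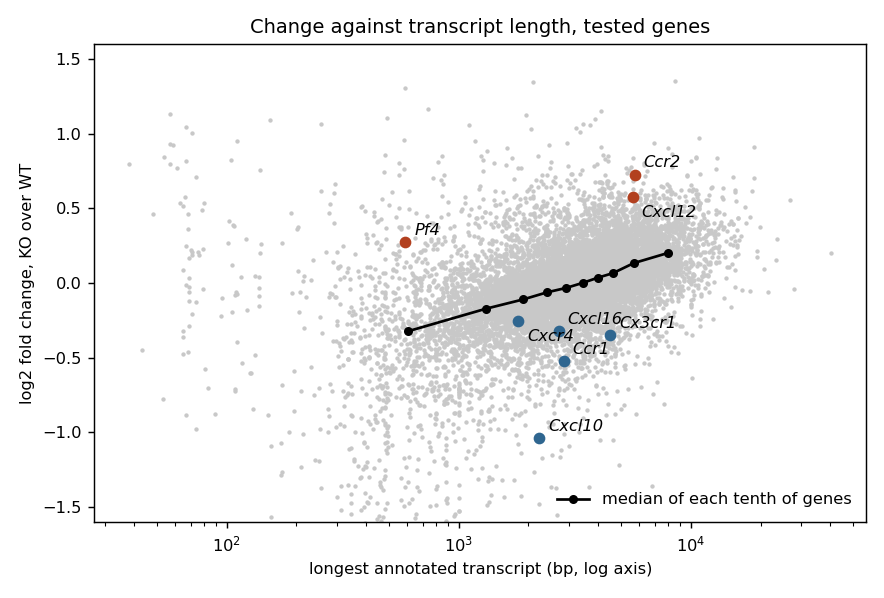
Log2 fold change of KO over WT against the longest annotated transcript (bp, log axis) for the tested genes (grey), with the median of each of 10 length classes (black line) and the 8 tested members (red higher, blue lower). The axis ends at 1.6 in each direction, with 106 genes beyond it, and Pf4 stands far above the line at its length while Cxcr4 lies close to it.

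Most of the tested ligands of CC receptors were called lower, in contrast to Ccr2, though several of these calls ended with the length trend removed. Of 22 CC, XC and CX3C chemokines listed, 9 were tested. Of these 7 fell (median log2 change -0.64), where 19.4% of all tested genes fell and their median was -0.01. Among the CCR2 ligands, Ccl2 had 11.8, 9.41 and 11.1 FPKM in the KO libraries, against 16.4, 19.1 and 20.3 FPKM in the WT libraries (edgeR, adjusted p = 0.000118). Ccl7 averaged 13.8 ± 0.943 FPKM in KO and 18.1 ± 0.789 FPKM in WT (edgeR, adjusted p = 0.00196), a call that ended with the length trend removed (adjusted p = 0.709). Of the CCR1 ligands, Ccl6 averaged 86.5 ± 5.30 FPKM in KO and 130.1 ± 8.86 FPKM in WT, a fall, and Ccl9 was not called at 79.8 ± 6.11 FPKM in KO and 81.4 ± 7.80 FPKM in WT. Ccl4, an inflammatory CC chemokine, averaged 2.66 ± 0.661 FPKM in KO and 6.13 ± 0.535 FPKM in WT (edgeR, adjusted p = 0.000558). Cx3cl1, the only ligand of CX3CR1 in the list, was not called, at 1.98 ± 0.169 FPKM in KO and 1.85 ± 0.111 FPKM in WT. With the length trend removed, 4 of the 9 fell and the median was -0.29. Before that correction the CCR2 ligand Ccl12 was called lower (edgeR, adjusted p = 0.0494), with overlapping libraries. The CCR1 ligand Ccl3 was also called lower (edgeR, adjusted p = 0.00977). Neither was called with the correction (edgeR, adjusted p = 0.455 and 0.670).

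No other listed receptor or CXC chemokine was called higher in KO by edgeR. Of 20 other chemokine receptors, 16 were in the table and 5 were tested. None was called, against 39.7% of all tested genes with edgeR. This was 0 by edgeR, 0 by DESeq2 and 0 by limma, with 1 at an unadjusted p under 0.05 in edgeR. That 1 was Ackr4, a scavenging receptor, at 2.62 ± 0.209 FPKM in KO and 2.13 ± 0.285 FPKM in WT (edgeR, adjusted p = 0.0902), followed by Ccrl2 and Cxcr3. Without WT library 3, 2 were called (Ackr4 and Ccrl2). Of 10 other CXC chemokines 1 was tested. Cxcl14 averaged 7.95 ± 0.892 FPKM in KO and 9.42 ± 0.411 FPKM in WT (edgeR, adjusted p = 0.0264), and this call ended with the length trend removed (adjusted p = 0.269).

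Genes that act behind the receptors changed in both directions. Of 22 tested genes of G protein and PI3 kinase signalling, 6 rose and 6 fell (median log2 0.03). These shares stand beside 20.3% and 19.4% of all tested genes, and with the length trend removed 5 rose and 5 fell. Gng2, a G protein gamma subunit, had 54.5, 54.1 and 56.6 FPKM in the KO libraries, against 37.2, 37.5 and 35.0 FPKM in the WT libraries (edgeR, adjusted p = 5.54e-06). Pik3cg, the PI3 kinase that G protein beta-gamma subunits activate, averaged 33.9 ± 0.951 FPKM in KO and 25.2 ± 0.552 FPKM in WT. Gngt2, another gamma subunit, fell to 6.81 ± 0.428 FPKM in KO, against 9.58 ± 0.332 FPKM in WT.

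Of 14 tested genes of receptor desensitisation, 5 rose and 3 fell (median log2 0.04), against 20.3% and 19.4% of all tested genes. With the length trend removed 3 rose and 1 fell. Rgs18, which speeds up GTP hydrolysis by G protein alpha subunits, rose to 17.4 ± 1.12 FPKM in KO, against 11.3 ± 1.19 FPKM in WT. Arrb1, which encodes beta-arrestin 1, averaged 27.5 ± 0.779 FPKM in KO and 21.9 ± 1.01 FPKM in WT (edgeR, adjusted p = 0.000749), a call that ended with the length trend removed (adjusted p = 0.0608). Grk3 fell to 1.003 ± 0.0127 FPKM in KO, against 1.37 ± 0.0252 FPKM in WT. Grk2, the kinase that RKIP is known to bind, had 58.5, 63.5 and 59.2 FPKM in the KO libraries, against 54.4, 52.7 and 54.3 FPKM in the WT libraries. Its libraries did not overlap, but it was not called (log2 0.11 ± 0.04, edgeR, adjusted p = 0.0586).

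**Figure D4:**
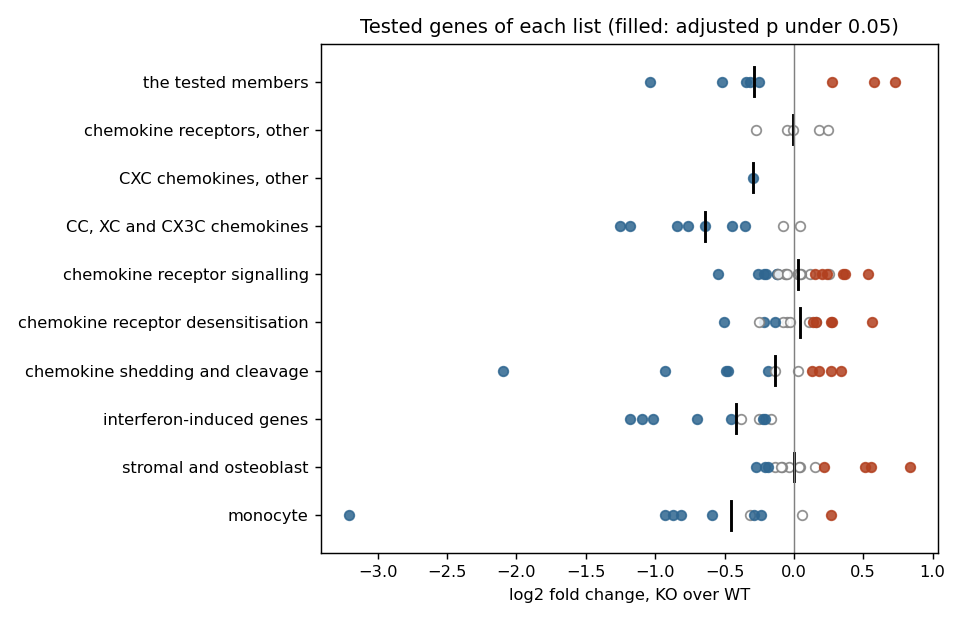
Log2 fold change of KO over WT for the tested genes of each list, with filled points for adjusted p under 0.05 (red higher, blue lower), open points for genes not called and a black bar at the median. The 8 tested members lie on both sides of 0, whereas the called CC chemokines and interferon-induced genes all lie below it.

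Genes were also ranked by how close their centred log2 count profile over the 6 libraries lay to that of each member, by root mean square difference. The closest to Ccr2 were St8sia4 and Cd28 (0.0488 and 0.0551), and to Cxcl12 Stk17b and Klhl24 (0.0191 and 0.0259). Pf4 lay closest to Crkl and Pik3r3 (0.0148 and 0.0186), Cxcr4 to Prdx2 and Rack1 (0.0178 and 0.0181) and Cxcl16 to Rps3 and the pseudogene Rps10-ps2 (0.0208 and 0.0257). The nearest profiles to Cx3cr1 were those of Top1mt and Septin5 (0.0192 and 0.0198), and to Ccr1 those of Atp5g1 and Tmem258 (0.0427 and 0.0441). Cxcl10 had more distant nearest profiles, Dnph1 and the pseudogene Gm2541 (0.0605 and 0.124).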

How the data were processed

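Libraries were made from oligo(dT)-selected RNA with dUTP marking of the second strand, per the labels' protocols. Cutadapt 1.9, HISAT2 2.0.4 and StringTie 1.3.4d are named in the submitters' processing notes, with no role or order. The genome build is not given in the sources used here. The authors deposited FPKM and, for the same genes and libraries, estimated counts rounded to whole numbers. Low estimated counts peaked at multiples of 4 (4 was found 5769 times, 3 was found 3204 times), so about 4 counts were taken as 1 fragment. A Pebp1 count of 0 was read against a floor of 12 counts per library, which makes it at least 413-fold lower in KO. Floors cover counting error only.

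KO and WT were compared with edgeR 4.0.16 (R 4.3.3, quasi-likelihood, TMM scaling, two-sided) on the 11636 genes averaging 1 FPKM or more, tried first on simulated counts. The standard error was taken as the size of the log2 change divided by the root of the F statistic. Alternatives were DESeq2 1.42.0, limma 3.58.1 on log2(FPKM + pseudocount), other scalings and filters, counts divided by 4, the replicate block and each library left out. The length trend was removed by loess (span 0.3) on the length implied by the ratio of count to FPKM, entered as an offset. A second correction, with transcript length and GC content, and a pseudocount of 0.5 were added after seeing the data. Replicates of 1 genotype were distinct libraries (chi-square of their counts 4.05 to 8.70 per degree of freedom). The labels do not say that libraries came from separate animals, so p-values here rest on a library-to-library spread that may be technical. Overlaps and transcript lengths are from GENCODE M21 (GRCm38), in which 27382 gene IDs matched, and near-identical transcripts were sought with blastn 2.17.0 at 90% identity over 150 bases. Coordinates are those of the deposited table, of whose 9 genes 7 had identical coordinates in GENCODE M21. The genes and lists were chosen with earlier results of these data known. Besides the 9 genes, the text names Pebp1, the 3 tested genes with the smallest p of each pathway list and Grk2, the 3 most abundant markers of the lists it uses, the nearest profiles, and ligands, receptors and cluster neighbours by role. Ly6c2 and Ly6g are named as defining markers, and Csf1r, Adgre1, Ifit1, Ifit2, Irf7, Kitl, Foxc1, Ebf3, Prrx1, Alpl, Tagln, Pdgfrb and Adam10 were named after their values were seen. Some listed genes are not reported here.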

Additional observations from a re-analysis of the deposited data

How the results depend on the processing

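Over 20 alternatives, each of the 8 tested genes kept its direction wherever it was tested. Ccr1, Ccr2, Cx3cr1, Cxcl12, Cxcl16, Cxcl10 and Pf4 were called in every alternative run for them, with a highest adjusted p of 0.0212 (Cxcl10). Cxcr4 was called in 18 of 20. Its log2 fold change was -0.0920 (adjusted p = 0.142) with the length correction and -0.12 (adjusted p = 0.0604) once GC content was corrected for as well. Its lowest value in any alternative was -0.30. Pf4 ranged from 0.23 to 0.74 and Cxcl10, on the scale of log2(FPKM + 1) at one end, from -1.25 to -0.59. The filter of a mean of 5 FPKM removed Cxcl10, so it gave no value there. Leaving out each library in turn left 3 higher and 5 lower. With the replicate block there were also 3 higher and 5 lower, and 2407 higher and 2294 lower over all genes, against 2364 and 2253 without it. Same-numbered libraries did not deviate together in every pair (r = 0.02, 0.19 and -0.04), so the numbers were not taken as pairs. Over the alternatives, 1597 to 2770 genes were higher and 1632 to 2880 lower. Depth limits Cxcl2, Cxcl10 and the scarce CXCR2 ligands most.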

Other observations

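Enzymes that cut or release chemokines, and their inhibitors, changed in both directions. Of 14 listed, 11 were tested, and 4 rose and 5 fell in KO (median log2 -0.13). Over all tested genes 20.3% rose and 19.4% fell, and with the length trend removed 3 of the 11 rose and 5 fell. Mmp9, a gelatinase that trims several CXC chemokines, had 3.53, 4.74 and 3.73 FPKM in the KO libraries, against 15.0, 18.0 and 16.4 FPKM in the WT libraries (edgeR, adjusted p = 1.23e-07). Mmp8, a neutrophil collagenase that is also in the neutrophil list, averaged 4.69 ± 0.270 FPKM in KO and 8.60 ± 0.282 FPKM in WT. The metalloprotease gene Adam8 fell to 105 ± 2.44 FPKM in KO, against 142 ± 5.27 FPKM in WT. Adam10, the protease known to shed CXCL16 and CX3CL1 from the cell surface, was slightly higher, at 43.5 ± 2.24 FPKM in KO and 37.0 ± 1.153 FPKM in WT (edgeR, adjusted p = 0.0108), and remained called with the length trend removed (adjusted p = 0.0188). Adam10 was named for this role after its value was seen.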
